A study of Mus musculus with 14 samples.

Results

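This comparison sets the 2 arrays of liver tissue RNA against the 2 arrays of small intestine tissue RNA from C57BL/6 mice, 4 of the 14 arrays of the series, across all 19938 mouse genes that the array annotation ties to a probe set with 1 gene symbol. A gene measured by several probe sets was read from the one with the highest mean signal. The series also holds 2 arrays each of gallbladder tissue, of liver, small intestine and gallbladder organoids (epithelial cultures grown in Matrigel with EGF, FGF10, HGF, R-spondin 1, noggin and nicotinamide), and of gallbladder organoids kept for a period without R-spondin 1, noggin and nicotinamide. Tissue and organoids all carry the same strain label, and the tissues were uncultured. The labels of the 4 tissue arrays give no age, sex, fasting state or stretch of intestine, and they do not say whether arrays 1 and 2 of a tissue came from separate animals. The p-values measure only the spread between the 2 arrays of each tissue in the fit, which includes gallbladder tissue. For liver and small intestine that spread may not be one between animals. It includes the large gaps between arrays of 1 tissue that are given below for single genes.

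Liver and small intestine are both endoderm-derived organs joined by the enterohepatic circulation. The hepatocyte, the main liver cell, secretes most plasma proteins, breaks down amino acids, makes urea and bile acids, and clears drugs and hormones. The absorptive enterocyte carries a brush border of digestive enzymes and nutrient carriers, and it lies beside mucus-secreting goblet cells, antimicrobial Paneth cells, hormone-producing enteroendocrine cells and a dividing crypt compartment.

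In these data 1881 genes were higher in liver (9.43% of those tested) and 2198 were higher in small intestine (11.0%), at an adjusted p under 0.05 in limma, a linear model with a spread shared across genes, fitted to the 6 tissue arrays. All values are log2 signals, so a difference of 1 is a doubling of the signal, and the signals of the 4 arrays ran from 2.66 to 14.8. No called gene had overlapping liver and intestine arrays, so the text mentions an overlap only where one occurs. The difference was at least 2 for 646 genes on the liver side and 800 on the intestine side, and at least 4 for 286 and 257. Across the whole table the differences centred near 0, with a median of 0.036. The shares of 9.43% and 11.0% are the background for the list counts below. The numbers of calls fell to 761 and 1104 without liver array 1, to 835 and 1233 without liver array 2, to 899 and 1661 without intestine array 1 and to 1150 and 1781 without intestine array 2. With any 1 of the 6 arrays left out, 498 genes stayed called as higher in liver and 971 as higher in intestine. Signals above about 14 lie near the top of the scale, where a difference is understated, and a difference on this scale says nothing of whether fewer cells of a type or less RNA per cell lies behind it.

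**Figure D1:**
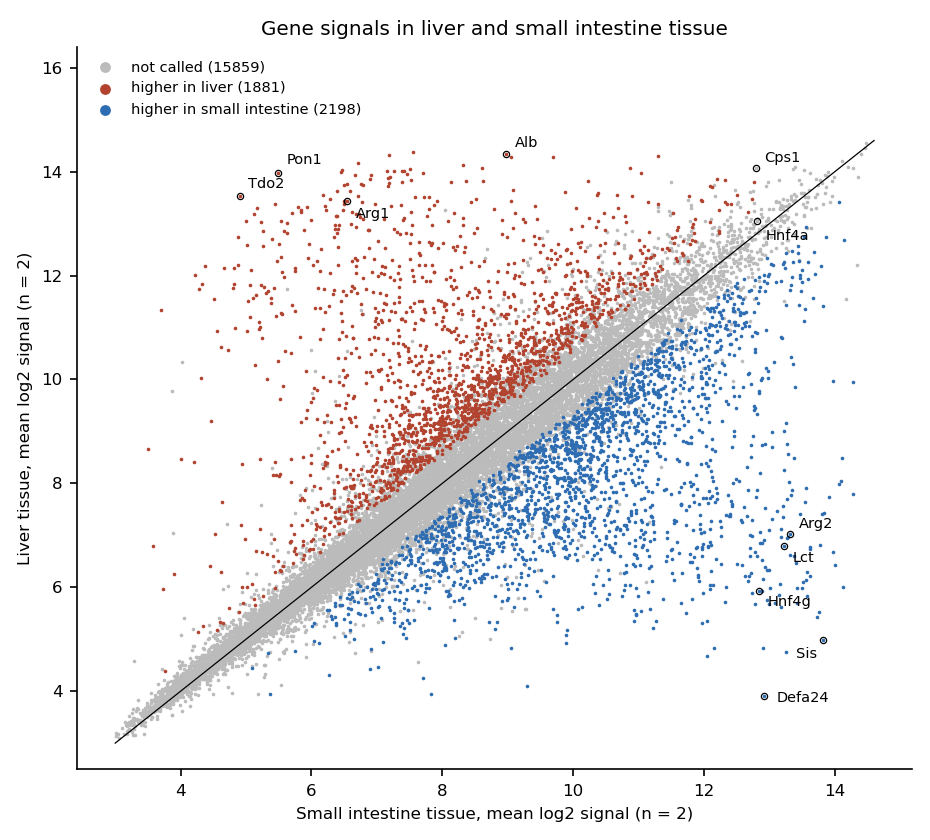
Mean log2 signal of each of 19938 genes in liver tissue (vertical axis, 2 arrays) against small intestine tissue (horizontal axis, 2 arrays), with the 1881 genes called higher in liver in red, the 2198 called higher in small intestine in blue and the line of equality in black. Cps1 and Hnf4a lie high and close to the line, while Tdo2 and Pon1 stand at the upper left and Sis and Defa24 at the lower right.

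The labels held against the defining markers of each tissue. Alb, the carrier protein albumin, read 14.34 and 14.35 on the liver arrays against 8.05 and 9.90 on the intestine arrays, a difference of 5.37 (SE 0.57, adjusted p 0.0029 in limma). Sis, the sucrase-isomaltase of enterocytes, read 4.91 and 5.07 in liver and 13.87 and 13.77 in intestine. The female-specific transcript Xist read 11.94 and 12.27 in liver and 11.57 and 11.91 in intestine, and Eif2s3y, a Y-linked gene, lay between 3.77 and 3.95, so all 4 arrays showed the same sex-linked pattern. Gallbladder tissue array 2, which enters the fit, did not, with Xist at 5.46 and Eif2s3y at 10.02. The gallbladder arrays also differed in hepatocyte genes, with a mean of 10.9 and 12.5 over the plasma protein genes. Such a gap enters the standard errors below, and weighs more in a fit without 1 liver or intestine array. A call can thus be lost in such a fit while the difference hardly moves. The count of a list from the 4 compared arrays alone is given beside the result where it differs by over 1.5 times and by at least 3 genes. The other list counts that it moved by over 1.5 times were counts of 3 or fewer, each moved by 1 gene or, for adipocyte markers, by 2.

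The 2 intestine arrays differed from each other in genes of particular stretches of the intestine, and this touches several results below. Fabp6, the ileal bile acid binding protein, read 13.16 on intestine array 1 and 5.42 on intestine array 2, against 5.67 and 5.50 in liver. Fgf15, the ileal hormone that represses bile acid synthesis, read 12.04 and 7.19 in the same order, against 7.11 and 7.34 in liver. Tmprss15, the duodenal enteropeptidase that activates trypsin, went the other way with 5.26 and 11.26, and Pdx1, a duodenal and pancreatic transcription factor, read 6.56 and 9.63. None of these 4 genes was called, and the groups overlapped for Fabp6, Fgf15 and Pdx1. Without intestine array 2, Fabp6 differed by -7.57 (adjusted p 0.00065) and Fgf15 by -4.82, and without intestine array 1, Tmprss15 differed by -6.19 and Pdx1 by -2.83. The mean signal of the 16 distal small intestine genes was 11.4 on array 1 and 9.41 on array 2, and that of the 15 proximal genes was 9.68 and 11.3. The part that the sampled region plays in the intestine results was not tested.

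Intestine array 2 also carried digestive enzymes of the exocrine pancreas. Cpa1, pancreatic carboxypeptidase A1, read 6.60 and 6.61 in liver, 6.79 on intestine array 1 and 13.52 on intestine array 2. Cel, the bile salt-stimulated lipase of pancreatic juice, read 6.24 and 6.00 in liver, then 6.27 and 12.83. The 19 pancreatic acinar genes averaged 7.67 on intestine array 1 and 11.8 on intestine array 2, beside 6.60 and 6.59 in liver. With all arrays 4 of the 19 were called higher in intestine, among them Spink1, a trypsin inhibitor (difference -7.37, adjusted p 5.5e-05), and Zg16, which goblet cells also make. Without intestine array 1 the number was 18, and without either liver array it was 2. Cpa1 and Cel were thus high on 1 intestine array and near the liver level on the other.

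The 2 liver arrays differed in clock, stress and fat genes. Arntl, the core clock activator, read 9.22 and 7.11, and Dbp, a clock output gene that peaks at the opposite time of day, read 8.99 and 11.91. Ddit4 and Gadd45g, stress- and glucocorticoid-responsive genes, read 13.26 and 12.68 on liver array 1 and 8.46 and 7.75 on liver array 2. Saa1, a serum amyloid A of the acute phase, read 13.46 and 7.23. Ucp1, the uncoupling protein of brown fat, read 6.08 and 9.75, and Adipoq, the fat cell hormone adiponectin, 5.80 and 8.29, so these were higher on liver array 2. The intestine arrays differed in the same sense for Arntl (8.89 and 7.95), Dbp (10.29 and 12.25) and Ddit4 (12.14 and 9.15). None of the 7 genes was called, with adjusted p from 0.113 to 0.956, and all 7 were chosen after their values were seen. Without liver array 2 Saa1 was called (difference 9.44, adjusted p 0.042), and without liver array 1 Ucp1 was (difference 3.84, adjusted p 0.0094). Of 18 circadian clock genes 1 was called in the comparison, Csnk1d, which is lower in liver by 0.69 (adjusted p 0.037, and 0.053 to 0.15 without any 1 of the 4 arrays). Without liver array 2 the counts were 3 in liver and 2 in intestine. With all arrays, neither the clock list nor the next lay above the shares of all genes, 9.43% in liver and 11.0% in intestine. Of 23 immediate early and heat shock genes 2 were called, Klf6 and Fosl2, both higher in intestine. None was called without either intestine array, 4 were higher in intestine without liver array 1, and 1 was higher in intestine and 3 in liver without liver array 2.

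**Figure D2:**
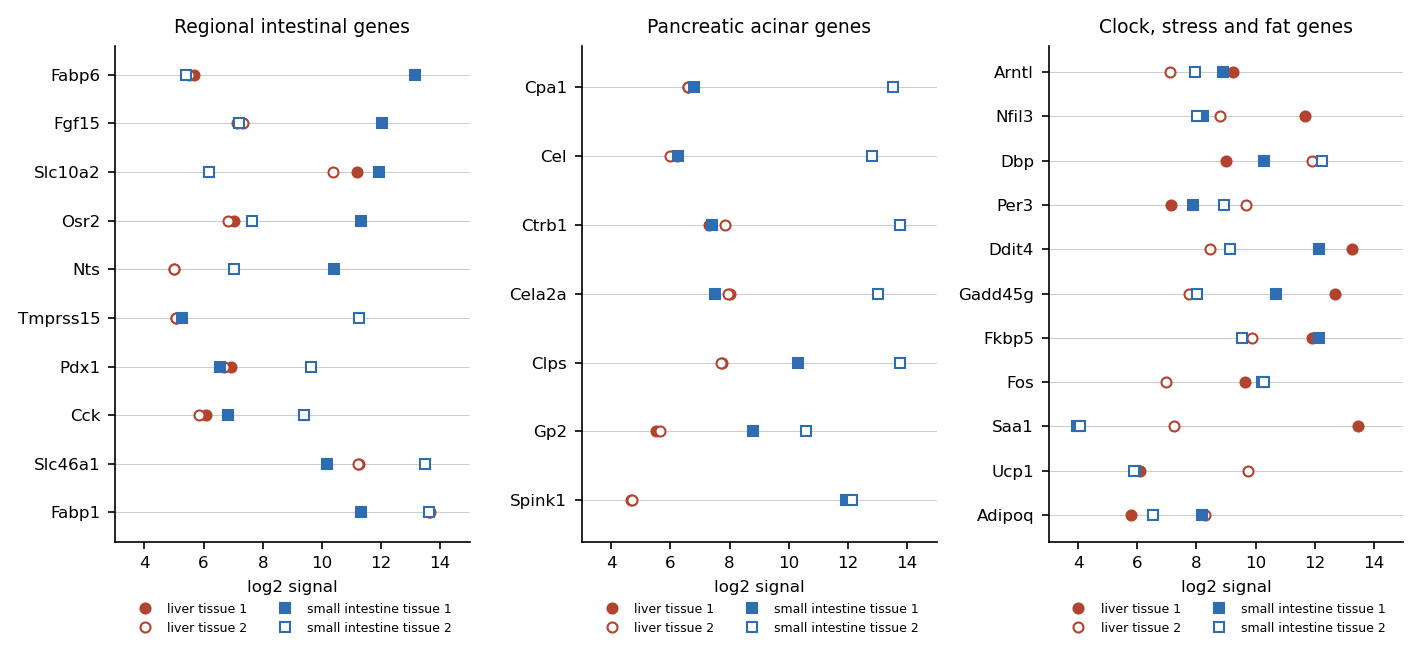
Log2 signals (horizontal axes) of regional intestinal genes, pancreatic acinar genes and clock, stress and fat genes on the 2 liver arrays (red circles) and the 2 small intestine arrays (blue squares), array 1 filled and array 2 open. Fabp6 and Fgf15 are high on intestine array 1 and Tmprss15, Cpa1 and Cel on intestine array 2, and Ddit4, Gadd45g and Saa1 stand apart on liver array 1.

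Among the genes with the largest differences, the 15 at the top of the liver side ran from 7.54 to 8.63 and the 15 at the top of the intestine side from -7.41 to -9.01. Tdo2, tryptophan dioxygenase, the first enzyme of hepatic tryptophan breakdown, read 13.64 and 13.43 in liver and 4.74 and 5.06 in intestine, a difference of 8.63 (SE 0.69, adjusted p 0.0012). Pon1, the paraoxonase carried on high density lipoprotein, read 13.90 and 14.06 against 5.51 and 5.48, a difference of 8.49 (SE 0.81, adjusted p 0.0021). Both arrays of each tissue lay close together for these 2 genes. The other 13 were Mup3, Ugt3a2, Slco1b2, Uox, Hrg, Gm21286, Serpina6, Sult2a8, Sult3a1, Cyp1a2, Ugt2b1, Fgg and Serpina1c. They encode plasma proteins (Hrg, Serpina6, Fgg), an organic anion carrier of the hepatocyte membrane (Slco1b2), urate oxidase (Uox) and enzymes of drug and steroid conversion. Mup3, Serpina1c, Ugt2b1, Ugt3a2, Sult2a8 and Sult3a1 belong to families of near-identical copies, and their signals may include those of relatives. Leaving out 1 array ended the call of Slco1b2 (adjusted p 0.056 without liver array 1 and 0.053 without liver array 2), Ugt2b1 (0.064 and 0.056) and Gm21286 (0.055 without liver array 2). Sult2a8 was no longer called without any 1 of the 4 arrays (0.052 to 0.077).

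On the intestine side Defa24, a Paneth cell defensin, read 12.34 and 13.49 in intestine and 3.87 and 3.94 in liver, a difference of -9.01 (SE 0.39, adjusted p 0.00022). Sis, sucrase-isomaltase, the brush border enzyme that splits sucrose, read 13.87 and 13.77 against 4.91 and 5.07, a difference of -8.83 (SE 0.16, adjusted p 5.5e-05). Both arrays of each tissue lay close together for Sis, and intestine array 2 was the higher for Defa24. Then came 2010106E10Rik, the mucin Muc3, Clca4b, the goblet cell lectin Zg16, the sulphate carrier Slc13a1, the neutral amino acid carrier Slc6a19, the peptide carrier Slc15a1, Lypd8, Clec2e, the villus keratin Krt20, Tmem236, Sectm1b and the retinol binding protein Rbp2. All 15 kept their call with any 1 of the 6 arrays left out. Defa24, Clca4b and Clec2e also have close relatives.

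**Figure D3:**
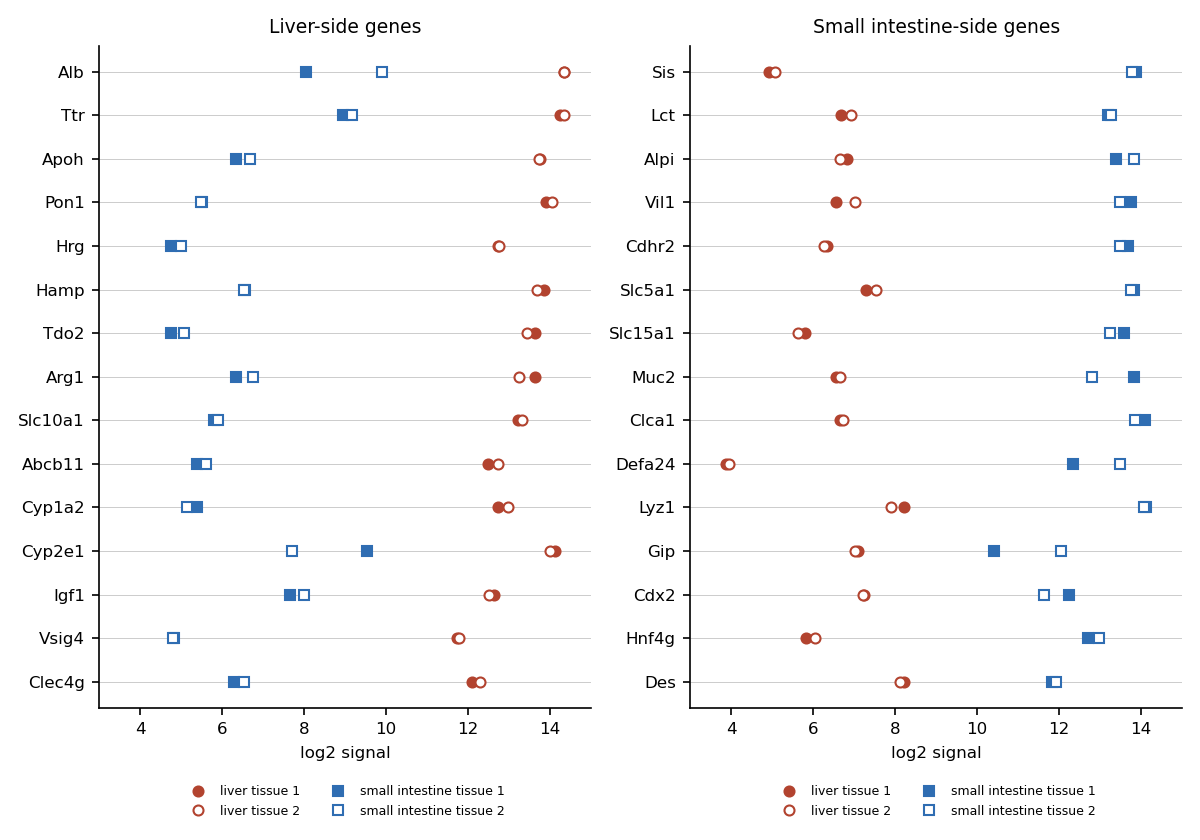
Log2 signal (horizontal axis) of 15 genes from the liver side and 15 from the small intestine side on the 2 liver arrays (red circles) and the 2 small intestine arrays (blue squares), array 1 filled and array 2 open. In every row the liver and intestine symbols are separate, and the widest gap between arrays of 1 tissue in a plotted gene is that of Alb and Cyp2e1 in intestine.

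Secreted plasma proteins made up the clearest group on the liver side. All 25 measured plasma carrier proteins and proteinase inhibitors were higher in liver, with a median difference of 6.83, and so were 21 of 26 coagulation and fibrinolysis factors, 15 of 19 acute phase proteins and 26 of 31 complement and lectin pathway proteins, set against 9.43% of all genes. No gene of these lists was called higher in intestine. Hrg, histidine-rich glycoprotein, read 12.74 and 12.75 in liver and a mean of 4.87 in intestine, where array 1 read 4.74 (difference 7.87, SE 0.77, adjusted p 0.0023). Serpina6, the corticosteroid-binding globulin, read 12.93 and 13.13 against 5.26 and 5.18 (difference 7.80, SE 0.36, adjusted p 0.00024). Both were flat within each tissue. Fgg, a chain of fibrinogen, was higher by 7.56 and Plg, plasminogen, by 7.01. Factor IX, F9, was higher by 7.51 and heparin cofactor Serpind1 by 7.03. Complement regulators and effectors with clear differences were Cfi, the C3b-cleaving factor I (6.59, adjusted p 0.0017), and Vtn, vitronectin (6.54, adjusted p 0.0030). C9, a pore-forming terminal component, was higher by 7.34 and Mbl1, a mannose-binding lectin, by 6.37, but without liver array 1 their adjusted p was 0.058 and 0.051. The complement count fell to 10 of 31 and the coagulation count to 13 of 26 without that array. Of the acute phase proteins Hamp, the iron hormone hepcidin, read 13.85 and 13.67 against 6.55 and 6.53 (difference 7.22, SE 0.30, adjusted p 0.00019), and Apcs, serum amyloid P, read 13.78 and 12.61 against 5.72 and 5.70. Hp, haptoglobin, was higher by 6.71 (adjusted p 0.0082, and 0.058 without liver array 1).

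The list of liver-derived hormones and growth factor carriers, which also holds the receptor Gcgr, gave 17 of 27 higher in liver and none higher in intestine (median 3.07). Igf1, insulin-like growth factor 1, read 12.64 and 12.52 in liver and 7.66 and 7.99 in intestine, a difference of 4.76 (SE 0.49, adjusted p 0.0027). Ces1c, a secreted carboxylesterase, was higher by 6.42 (adjusted p 0.0011). Agt, angiotensinogen, was higher by 4.38 and Gcgr, the glucagon receptor, by 4.41, and both calls were lost without either liver array (adjusted p 0.060 to 0.089). Without intestine array 2 the count was 10, and without liver array 1 or 2 it was 9 or 8.

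Amino acid breakdown was the metabolic group with the most calls in liver, 33 of 38 genes, with 2 higher in intestine and a median of 4.89. Large differences beside that of Tdo2 were those of Mat1a, the hepatic methionine adenosyltransferase (14.20 and 14.15 against 6.24 and 7.18, difference 7.46, adjusted p 0.0013), Hgd, homogentisate dioxygenase of tyrosine breakdown (7.23), Tat, tyrosine aminotransferase (6.97), and Bhmt, which remethylates homocysteine (6.76). Aass, of lysine breakdown, read 13.09 and 12.68 in liver and 5.83 and 5.93 in intestine (adjusted p 0.0045), a difference between those of Hgd and Tat. The 2 genes on the intestine side were Ido1 and Dao. Ido1, an inducible tryptophan-degrading enzyme, read 10.22 and 10.46 in intestine and 5.89 and 5.88 in liver, a difference of -4.45 (SE 0.16, adjusted p 0.00014). Tryptophan dioxygenase and indoleamine dioxygenase, which open the same ring of tryptophan, were thus divided between the tissues. Dao, D-amino acid oxidase, read 8.03 and 9.58 against 5.83 and 5.82 (difference -2.98, adjusted p 0.012, and 0.070 and 0.066 without liver array 1 or 2). Without liver array 1 the liver count was 17, and without liver array 2 it was 19.

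The urea cycle did not separate as a whole, with 5 of 17 genes higher in liver and 2 higher in intestine (median 0.67). Over all genes the shares were 9.43% and 11.0%, so the intestine count lay near the share of all genes. Cps1, which commits ammonia to the cycle, read 14.12 and 14.03 in liver and 12.62 and 12.96 in intestine. The difference of 1.28 was not called (SE 0.47, adjusted p 0.121) but was in the fit of the 4 compared arrays (adjusted p 0.012). Otc, the next enzyme, read 12.79 and 12.78 against 11.74 and 11.86 (difference 0.99, adjusted p 0.461, and 0.012 in the fit of the 4 compared arrays). Both tissues thus gave strong signals for the early steps, and the arrays did not overlap. The last step did separate. Arg1, the cytosolic arginase that releases urea, read 13.63 and 13.24 in liver and 6.34 and 6.75 in intestine (difference 6.89, SE 0.65, adjusted p 0.0020). Arg2, the mitochondrial arginase, went the other way with 7.05 and 6.98 in liver and 13.03 and 13.60 in intestine (difference -6.30, SE 0.26, adjusted p 0.00019). Aldh18a1, which makes the ornithine and proline precursor, was lower in liver by 3.79 (adjusted p 0.00063). Asl, argininosuccinate lyase, was higher in liver by 3.65 and Glul, glutamine synthetase, by 2.52, and both calls were lost without liver array 1 or 2 (adjusted p 0.054 to 0.078). In the fit of the 4 compared arrays alone 9 of the 17 were higher in liver, against 3 without intestine array 1 and 1 without either liver array.

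Bile acid genes were called mainly on the liver side, with 15 of 32 higher in liver, against 9.43% of all genes, and 2 higher in intestine, a share below the 11.0% of all genes (median 2.65). Slc10a1, the sodium-dependent carrier that takes bile acids up from blood into hepatocytes, read 13.21 and 13.31 in liver and 5.80 and 5.89 in intestine (difference 7.42, SE 0.57, adjusted p 0.0011). Abcb11, the canalicular bile salt pump, read 12.50 and 12.72 against 5.39 and 5.61 (difference 7.11, SE 0.86, adjusted p 0.0044). Cyp7a1, the rate-limiting enzyme of bile acid synthesis, read 10.88 and 12.78 against 4.74 and 4.90 (difference 7.01, adjusted p 0.011, and 0.062 without liver array 2 and 0.052 without intestine array 1). The lower of its 2 liver values was on liver array 1. On the intestine side stood both subunits of the basolateral exporter, Slc51a (12.86 and 11.43 against 5.97 and 6.11, difference -6.10, adjusted p 0.0011) and Slc51b (13.06 and 11.87 against 8.20 and 9.64, difference -3.54, adjusted p 0.012). Slc10a2, the ileal uptake carrier, read 11.18 and 10.37 in liver and 11.94 and 6.18 in intestine, so the groups overlapped and the difference of 1.71 was not called (adjusted p 0.584). Slc10a2 was called as higher in liver by 4.60 without intestine array 1 (adjusted p 0.0060) and was -1.17 without intestine array 2 (adjusted p 0.153). Without liver array 1 or 2, 8 or 7 of the bile acid genes were higher in liver, and without intestine array 2, 4 were higher in intestine.

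Drug-metabolising genes leaned to liver but divided within families. Of 68 cytochrome P450 genes of families 1 to 4, 27 were higher in liver and 7 higher in intestine, with a median of 0.50. Over all genes the shares were 9.43% and 11.0%. The intestine counts of this list and of the conjugation enzymes below were thus not above the share of all genes. Cyp1a2, which oxidises caffeine and aromatic amines, read 12.74 and 12.97 in liver and 5.39 and 5.13 in intestine (difference 7.59, SE 1.07, adjusted p 0.0073). Within the Cyp2c family Cyp2c70, the muricholic acid enzyme, was higher in liver by 7.52, whereas Cyp2c65 was lower by 6.61, with 6.12 and 5.29 in liver and 11.75 and 12.88 in intestine (adjusted p 0.00096). Members of this family share sequence, so their separate signals are uncertain. Cyp2s1 was lower in liver by 4.36 and Cyp4f40 by 3.95, while Cyp2e1, the ethanol-oxidising enzyme, was higher by 5.45 (9.53 and 7.69 in intestine, adjusted p 0.0047). The main Cyp3a gene of mouse liver, Cyp3a11, read 12.92 and 12.96 in liver and 11.47 and 12.83 in intestine and was not called (difference 0.79, adjusted p 0.414). Of 44 conjugation enzymes 20 were higher in liver and 3 in intestine, and on the intestine side the sulphotransferase Sult2b1 had the largest difference, -6.11 (SE 0.14, adjusted p 5.5e-05). Without liver array 1 or 2 the liver counts were 16 and 17 for the P450 genes and 13 and 13 for conjugation, which also had 13 without intestine array 1, and the 3 intestine calls fell to 1 without liver array 1, liver array 2 or intestine array 2.

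Fuel metabolism gave calls in both directions, not far from the shares of all genes (9.43% and 11.0%). Among 29 genes of gluconeogenesis, glycogen and fructose metabolism 5 were higher in liver and 4 higher in intestine (median 0.36), and of 32 genes of fatty acid oxidation and ketone synthesis 4 and 3 were called (median 0.60). Pck1, the first committed enzyme of gluconeogenesis, read 14.05 and 13.20 in liver and 13.72 and 11.76 in intestine, with overlapping arrays (difference 0.88, adjusted p 0.582). G6pc, glucose-6-phosphatase, read 13.49 and 13.40 against 12.80 and 10.73 (difference 1.69, adjusted p 0.210). Single genes were called on each side. Ppp1r3b, a glycogen-targeting subunit, was higher in liver by 3.56 (adjusted p 0.0014), and liver glycogen synthase Gys2 by 6.18 (adjusted p 0.0094, and 0.060 without liver array 2). Fbp2, a muscle-type fructose bisphosphatase, read 12.28 and 12.24 in intestine and 7.20 and 6.77 in liver (difference -5.28, SE 0.21, adjusted p 0.00019), and the fructose carrier Slc2a5 was lower in liver by 4.53 (adjusted p 0.0069). Cyp4a14, a fatty acid hydroxylase, was higher in liver by 6.83 (adjusted p 0.00019), and Oxct1, which burns ketone bodies and which hepatocytes lack, was higher in intestine by 3.02 (adjusted p 0.0060). In the fit of the 4 compared arrays 8 of the 29 and 9 of the 32 were higher in liver. Leaving out intestine array 1, liver array 1 or liver array 2 gave 3 of the 29, and leaving out 1 array gave 1 or 2 of the 32 (1 without either liver array and 2 without either intestine array).

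Lipid transport gave calls on both sides, with 13 of 40 lipoprotein and sterol transport genes higher in liver and 6 in intestine (median 0.84). Over all genes 9.43% and 11.0% were called on those sides, and the intestine count of the synthesis list below lay under its share. Apob, the structural protein of both chylomicrons and very low density lipoprotein, read 13.65 and 13.23 in liver and 13.66 and 13.05 in intestine (difference 0.08, adjusted p 0.961). Apoa1 read 14.35 and 14.31 against 14.48 and 14.33, near the top of the scale. Both genes had overlapping arrays. Apoh was higher in liver by 7.24, Apoc1 by 6.81 and Lcat, the plasma cholesterol esterifying enzyme, by 6.56. Npc1l1, the cholesterol uptake protein of the brush border, read 13.67 and 13.25 in intestine and 7.53 and 7.29 in liver (difference -6.05, adjusted p 0.0021), and Mogat2 and Dgat1, which rebuild dietary triglyceride, were lower in liver by 5.65 and 3.05. Of 36 genes of cholesterol and fatty acid synthesis 12 were higher in liver and 2 in intestine (median 1.65), led by Thrsp, a lipogenic regulator (5.97, adjusted p 0.0076, and 0.052 without liver array 2), and Fads1, a fatty acid desaturase (3.25, adjusted p 0.0032). On the intestine side Elovl7, an elongase, was lower in liver by 4.38 (adjusted p 0.00060). The lipoprotein count for liver was 8 without either liver array, and the synthesis count was 7 without either intestine array and 8 without liver array 2. Elovl1, the other elongase on the intestine side, lost its call without any 1 of the 4 arrays.

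Iron, copper and retinoid genes included members called on each side. Of 28 iron and copper genes 12 were higher in liver and 4 in intestine (median 1.24), and of 30 retinoid genes 5 and 7 (median 0.30). Over all genes 9.43% and 11.0% were called on those sides. The intestine count of iron and copper genes lay near that share. Cp, the plasma ferroxidase ceruloplasmin, read 13.37 and 13.18 in liver and 7.78 and 7.81 in intestine (difference 5.48, adjusted p 0.0014), whereas Heph, the membrane-bound ferroxidase of enterocytes, read 12.11 and 11.82 in intestine and 6.72 and 6.83 in liver (difference -5.19, adjusted p 0.00010). Rbp4, the plasma retinol carrier, was higher in liver by 5.46 (adjusted p 0.0022), and Rbp2, the cellular retinol binding protein of enterocytes, lower by 7.41 (adjusted p 0.00010). Isx, which represses carotenoid uptake in the intestine, was lower in liver by 5.29. Without liver array 1 or 2 the retinoid counts were 3 and 2 on the liver side and 3 and 4 on the intestine side, without intestine array 1 the liver side had 2, and the 4 compared arrays alone gave 9 higher in liver. Without liver array 2 the iron and copper genes higher in intestine numbered 2.

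Such splits between related proteins were counted over a list of 24 pairs, of which 18 had both members measured. In 7 of the 18 the member named for liver was higher there and the other higher in intestine, both called. Of all single genes 9.43% were called higher in liver and 11.0% in intestine. The 7 pairs are listed next. These were Arg1 and Arg2, Rbp4 and Rbp2, Cp and Heph, Cdh2 and Cdh17, Tfr2 and Tfrc, Alpl and Alpi, and Slc7a2 and Slc7a9. Both calls were kept with any 1 array left out for 4 of the pairs, namely the arginases, the retinol binding proteins, the ferroxidases and the cationic amino acid carriers Slc7a2 (5.64, adjusted p 0.0049) and Slc7a9 (-5.66, adjusted p 0.00022). Cdh2, N-cadherin, was higher in liver by 4.69 (adjusted p 0.023, and 0.078 to 0.12 without any 1 of the 4 arrays), and Cdh17, the intestinal cadherin, lower by 7.40. Tfr2, Tfrc and Alpl lost their calls in 3 or all of those fits (adjusted p 0.070 to 0.20).

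Transcription factors named for hepatocytes gave fewer calls than those named for intestine. The gallbladder arrays differed for some hepatocyte factors, such as Prox1 (7.47 and 9.87) and Cebpa (8.64 and 10.44), and that gap enters their standard errors. In the fit of the 4 compared arrays 10 hepatocyte factors were higher in liver and 20 intestinal factors higher in intestine. With all 6 tissue arrays, 8 of 28 hepatocyte factors were higher in liver and 2 in intestine (median 1.09). Of 40 intestinal factors 22 were higher in intestine and 1 in liver (median -1.27). Over all genes 9.43% were higher in liver and 11.0% in intestine. The 2 and the 1 lay under those shares, as did the Hox count below. Hnf4a, a nuclear receptor that drives many genes of both epithelia, read 13.15 and 12.94 in liver and 12.81 and 12.81 in intestine, and the difference of 0.23 was not called (SE 0.42, adjusted p 0.778). Its relative Hnf4g read 5.82 and 6.04 in liver and 12.71 and 12.98 in intestine, a difference of -6.92 (SE 0.28, adjusted p 0.00019). One member of this pair was thus strong in both tissues, and the other was strong in intestine and low in liver. Vdr, the vitamin D receptor, was lower in liver by 6.74, Cdx2, the caudal factor of intestinal identity, by 4.72 (7.23 and 7.21 against 12.23 and 11.64), Elf3 by 4.52 and Gata5 by 4.24, all with adjusted p from 0.00034 to 0.0029. On the liver side Onecut1 read 9.86 and 10.42 against 6.97 and 6.69 (difference 3.31, adjusted p 0.00079), Rora was higher by 2.60 and Atf5 by 1.95. Prox1, Hhex and Cebpa were higher in liver by 3.89, 3.12 and 2.70, and each lost its call in 3 or all of the fits without 1 of the 4 arrays (adjusted p 0.054 to 0.12). The exceptions were Zfp750, an intestinal-list factor higher in liver by 2.57, and the hepatocyte-list genes Tox3 (-2.43) and the xenobiotic receptor Nr1i2 (-0.51, adjusted p 0.050, and 0.063 to 0.18 without any 1 array). The hepatocyte factor count was 5 without intestine array 1 or liver array 2. Of 37 Hox cluster genes 1 was called, Hoxa5, higher in intestine by 0.66 (adjusted p 0.024, and 0.086 to 0.12 without any 1 of the 4 arrays).

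The stretch before the transcription start is shown for 2 strong genes of each side, because factors of these families are known to bind such stretches. The sequences are the 250 bases before the start in RefSeq on GRCm38.p6, 5′ to 3′ on the gene's strand, with capitals at matches to 5 motifs searched on both strands, chosen as short cores of known sites. The HNF1 core was GTTAAT. The core used for HNF4 was CAAAGT. For FOXA the letters were TGTTTAC. The CDX core was CATAAA, and the GATA core AGATAA. No 2 matches overlap in these 4 stretches. Alb lies at chr5:90460620-90460869 on the plus strand, Apoh at chr11:108395047-108395296 on the plus strand, Sis at chr3:72967864-72968113 on the minus strand and Lct at chr1:128328319-128328568 on the minus strand.
Alb: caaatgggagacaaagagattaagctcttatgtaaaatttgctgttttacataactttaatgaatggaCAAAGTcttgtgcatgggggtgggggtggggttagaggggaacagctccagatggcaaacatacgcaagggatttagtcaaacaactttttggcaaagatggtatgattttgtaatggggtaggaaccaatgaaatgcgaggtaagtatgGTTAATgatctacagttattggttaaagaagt
Apoh: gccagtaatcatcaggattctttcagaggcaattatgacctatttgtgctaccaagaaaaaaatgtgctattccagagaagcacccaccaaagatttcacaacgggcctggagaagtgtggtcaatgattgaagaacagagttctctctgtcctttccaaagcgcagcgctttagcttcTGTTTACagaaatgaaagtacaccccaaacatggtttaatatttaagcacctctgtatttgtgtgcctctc
Sis: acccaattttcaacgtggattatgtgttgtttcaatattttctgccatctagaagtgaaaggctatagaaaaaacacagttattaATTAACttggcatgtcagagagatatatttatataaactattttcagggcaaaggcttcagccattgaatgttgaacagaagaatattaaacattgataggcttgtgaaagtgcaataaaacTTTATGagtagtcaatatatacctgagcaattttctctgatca
Lct: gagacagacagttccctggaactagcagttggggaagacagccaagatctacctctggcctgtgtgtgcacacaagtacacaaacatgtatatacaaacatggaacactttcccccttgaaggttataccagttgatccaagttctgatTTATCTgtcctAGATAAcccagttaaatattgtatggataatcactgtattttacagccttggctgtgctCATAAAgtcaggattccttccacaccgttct
Alb held an HNF4 core and an HNF1 core, the latter 32 to 27 bases before the start, and Apoh a FOXA match 71 to 65 bases before it. Sis, the intestinal gene, held an HNF1 core and a CDX match 43 to 38 bases before the start, and Lct, lactase, a CDX match 31 to 26 bases before it and 2 GATA matches.

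Over the 15614 tested genes with such a stretch, 6.60% held the HNF1 core, 13.6% the HNF4 core, 3.18% the FOXA motif, 10.3% the CDX motif and 9.94% the GATA motif. Among the 214 genes called higher in liver by at least 4 the shares were 21.0%, 27.6%, 7.01%, 16.8% and 12.6%. Among the 193 called higher in intestine by at least 4, 13.5% held the HNF1 core, 21.8% the HNF4 core, 4.66% the FOXA motif, 15.03% the CDX motif and 14.5% the GATA motif. All 5 motifs were thus more frequent in the genes with large differences of either side than in all genes, and those for HNF1, HNF4, FOXA and CDX had higher shares on the liver side than on the intestine side. Over all called genes the shares were nearer the background, with the HNF1 core in 8.48% of 1509 liver-side genes and 5.85% of 1745 intestine-side genes. There the HNF1, HNF4 and FOXA motifs lay above the background on the liver side and below it on the intestine side. The CDX motif (8.55% on the liver side and 8.60% on the intestine side) and the GATA motif (7.82% and 8.54%) lay below it on both sides. Genes may have several starts, and a gene counted when any of them had the motif. A match is a string of letters and was not tested as a binding site.

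The digestive and absorptive surface dominated the intestine side. Of 26 microvillus and terminal web proteins 22 were higher in intestine and none in liver (median -4.16), of 28 brush border hydrolases 17 and 1 (median -2.96), and of 45 absorptive transporters 28 and 1 (median -2.95), against 11.0% of all genes. Cdhr2, a protocadherin that links microvillus tips, read 13.68 and 13.49 in intestine and 6.33 and 6.25 in liver (difference -7.29, SE 0.16, adjusted p 5.5e-05). Vil1, the actin bundling protein villin, read 13.76 and 13.48 against 6.55 and 7.01 (difference -6.84, SE 0.27, adjusted p 0.00019). Lct, the milk sugar enzyme, read 13.19 and 13.26 against 6.68 and 6.92 (difference -6.43, adjusted p 5.5e-05). The intestine arrays were level for these 3 genes. Mep1b, a meprin protease, was lower in liver by 7.29 and Alpi, intestinal alkaline phosphatase, by 6.87, while Mep1a (13.84 and 11.73 in intestine, 5.48 and 5.87 in liver) and Xpnpep2 (13.90 and 11.48 against 6.26 and 6.17) were higher on intestine array 1 than on array 2. Anpep, aminopeptidase N, read 14.47 and 14.20 in intestine and 12.35 and 12.06 in liver, and this smaller difference of -2.13 was not called (SE 0.61, adjusted p 0.065). Fabp2, the intestinal fatty acid binding protein, read 14.27 and 14.08 against 11.38 and 11.70 and was likewise not called (difference -2.63, adjusted p 0.054), and Fabp1, the liver form, read 13.67 and 13.61 in liver and 11.32 and 13.63 in intestine, with overlapping arrays. Among carriers Slc13a1 was lower in liver by 8.08, Slc6a19 by 7.75, Slc15a1 by 7.71, Cubn, the vitamin B12 receptor, by 7.21 and Slc5a1, the sodium-glucose carrier, by 6.39. The 1 hydrolase on the liver side was Alpl, tissue-nonspecific alkaline phosphatase (2.11, adjusted p 0.047, and 0.084 to 0.20 without any 1 of the 4 arrays). The 1 carrier was the nucleoside carrier Slc29a1 (3.15, adjusted p 0.0091, and 0.058 and 0.056 without liver array 1 or 2).

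Secretory cells of the epithelium followed. Of 24 goblet cell products 19 were higher in intestine (median -2.35). Clca1, a secreted mucus protease, read 14.09 and 13.86 in intestine and 6.65 and 6.73 in liver (difference -7.29, SE 0.15, adjusted p 5.5e-05), and Muc2, the gel-forming mucin, 13.82 and 12.80 against 6.56 and 6.66 (difference -6.70, SE 0.33, adjusted p 0.00032). The higher Muc2 value was on intestine array 1. The 1 member higher in liver, Ccl9, is a chemokine (2.90, adjusted p 0.0062). Of 20 Paneth cell and antimicrobial products 13 were higher in intestine (median -4.26). Lyz1, the Paneth cell lysozyme, read 14.12 and 14.08 against 8.21 and 7.90 (difference -6.04, adjusted p 0.00013), and Guca2b, uroguanylin, 14.29 and 14.27 against 7.67 and 7.92. Reg3g and Reg3b, antibacterial lectins, were lower in liver by 7.33 and 6.96, and both lost their call without liver array 1 or 2 (adjusted p 0.052 to 0.057). Mmp7, the protease that activates defensins, was lower in liver by 3.12 (adjusted p 0.011, and 0.050 to 0.072, not called, without intestine array 2 or either liver array). Habp2, a plasma serine protease placed on this list, was higher in liver by 4.50 (adjusted p 0.00034). The Paneth count was 8 without either liver array.

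Enteroendocrine hormones and regulators gave 16 of 36 higher in intestine and none in liver (median -1.23). Gip, the incretin of the upper intestine, read 10.42 and 12.05 in intestine and 7.10 and 7.03 in liver (difference -4.17, SE 0.51, adjusted p 0.0046), with the higher value on intestine array 2. Gcg, proglucagon, read 9.17 and 9.16 against 6.16 and 5.95 (difference -3.11, adjusted p 0.00094). Sst, somatostatin, was lower in liver by 3.32 and lost its call without liver array 1 or 2 (adjusted p 0.085 and 0.086), where the count was 8. Tuft cell markers gave 8 of 24, led by Rgs13 (-4.95, adjusted p 0.00058) and the cation channel Trpm5 (-2.31, adjusted p 0.0017), and 4 without either liver array. Il17rb was the 1 tuft marker higher in liver (1.48, adjusted p 0.032, and 0.078 to 0.16 without any 1 of the 4 arrays).

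Cell cycle genes were for the most part higher in intestine. Of 58 cell cycle genes 40 were higher in intestine and 1 in liver (median -1.44). Top2a, topoisomerase II of dividing cells, read 10.07 and 10.05 in intestine and 6.57 and 6.94 in liver (difference -3.31, SE 0.25, adjusted p 0.00097). Mki67, the proliferation antigen, read 10.48 and 10.01 against 7.35 and 7.36 (difference -2.89, adjusted p 0.0027). The exception was Ccnd1, cyclin D1, higher in liver by 1.13 (11.20 and 11.82 against 10.55 and 10.21, adjusted p 0.039, and 0.054 to 0.15 in 5 of the 6 fits without 1 array). Crypt stem cell and Wnt target genes were mixed, with 8 of 26 higher in intestine and 2 in liver (11.0% and 9.43% of all genes). Olfm4, a crypt base glycoprotein, read 11.94 and 12.58 in intestine and 6.73 and 6.17 in liver (difference -5.81, adjusted p 0.0030), and Axin2, a Wnt feedback gene, was lower in liver by 1.27 (adjusted p 0.0029). Lgr5, the crypt stem cell receptor that pericentral hepatocytes also express, read 9.40 and 8.41 in liver and 8.75 and 8.74 in intestine, with overlapping arrays (difference 0.16, adjusted p 0.887). Notum, a Wnt deacylase, was higher in liver by 2.15 (adjusted p 0.0070) and the receptor ligase Znrf3 by 0.84, the latter not without any 1 of the 4 arrays (adjusted p 0.055 to 0.11). The intestine count was 5 without liver array 1 and 4 without liver array 2.

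Epithelial structure differed in kind. Of 47 keratins, cadherins and tight junction genes 29 were higher in intestine and 7 in liver (median -1.51). Krt19, a keratin of simple ductal and intestinal epithelium, read 13.33 and 13.09 in intestine and 7.29 and 7.41 in liver (difference -5.86, adjusted p 7.5e-05), Epcam was lower in liver by 5.80 and Cldn7 by 5.94. On the liver side the gap junction protein Gjb1 read 11.92 and 11.32 against 8.36 and 8.41 (difference 3.24, adjusted p 0.0022). The liver count was 2 or 3 without any 1 of the 4 arrays. Of 18 bile duct epithelium markers 9 were higher in intestine and 2 in liver (11.0% and 9.43% of all genes). Krt19, Epcam, Cldn7 and the chloride channel Cftr (-4.92), which this list shares with intestinal epithelium, were among the 9. Pkhd1, the polycystic disease protein of bile ducts, was higher in liver by 1.40 (adjusted p 0.0052).

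Several lists of cells other than the epithelium gave calls on the liver side above the 9.43% of all genes. Kupffer cells, the resident macrophages of liver, gave 12 of 21 markers higher in liver and none in intestine (median 1.69), and the list averaged 9.88 and 9.68 on the liver arrays and 7.23 and 7.76 on the intestine arrays. Vsig4, a complement receptor, read 11.74 and 11.77 in liver and 4.82 and 4.79 in intestine (difference 6.95, SE 0.73, adjusted p 0.0029), Cd5l was higher by 6.14 and the lectin Clec4f by 4.08. Liver sinusoidal endothelium gave 13 of 23 higher in liver and 2 in intestine (median 2.07), with Clec4g at 12.10 and 12.30 against 6.28 and 6.52 (difference 5.79, adjusted p 0.0073) and coagulation factor VIII, F8, higher by 3.70 (adjusted p 0.0050). The 2 on the intestine side were Gata4, whose call was lost without intestine array 2 or either liver array (adjusted p 0.069 to 0.16), and Maf. The sinusoidal count was 7, 8 and 6 without intestine array 1, liver array 1 and liver array 2. General endothelial markers gave 11 of 26 on the liver side, but 1, 4, 2 and 2 without intestine array 1, intestine array 2, liver array 1 and liver array 2, while Cdh5, vascular cadherin, stayed called in each fit (2.14, adjusted p 0.0042). Hepatic stellate cell markers gave 8 of 19, with Hgf, hepatocyte growth factor, higher by 2.61 (adjusted p 0.0024), and 4 or 5 without liver array 1 or 2. On the intestine side of this list stood desmin, Des (-3.71), which smooth muscle also makes, and Vipr1, a receptor for vasoactive intestinal peptide (-2.06, adjusted p 0.015, and 0.072 to 0.085 without intestine array 1 or either liver array). Macrophage and monocyte markers gave 3 of 21 higher in liver, among them the mannose receptor Mrc1 (2.94, adjusted p 0.0025), and 2 in intestine, Lgals3 (-3.45) and Mertk (-1.89), counts near those that the shares of all genes (9.43% and 11.0%) would give. The liver count of this list was 9 without intestine array 2 and 1 without liver array 1, and its intestine count was 4 without intestine array 1.

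Smooth muscle was the largest non-epithelial group of the intestine, with 21 of 28 markers higher there and 1 in liver (median -1.90). Des, desmin, read 11.82 and 11.93 in intestine and 8.21 and 8.11 in liver (difference -3.71, SE 0.22, adjusted p 0.00049), and Actg2, enteric actin, 10.78 and 11.11 against 6.82 and 6.78 (difference -4.14, adjusted p 0.00034). Without liver array 1 the count was 13. The exception was Cald1, caldesmon, higher in liver by 1.44 (adjusted p 0.0059). Fibroblast and matrix genes did not lean either way, with 4 of 32 on each side. Those counts lie near the shares of all genes (9.43% and 11.0%), and those of the enteric neuron list below lie under them. Among the calls were the fibronectin gene Fn1 (2.90, adjusted p 0.0034), made by hepatocytes too, and fibulin Fbln1 (-4.27, adjusted p 0.00049). Both fibroblast counts fell without intestine array 2 or either liver array. Of 28 enteric neuron, glia and pacemaker markers 2 were higher in intestine, Tac1 and Vip (5 without intestine array 2 and 4 without liver array 2), and 1, the receptor Gfra1, in liver (4.79, adjusted p 0.013, and 0.053 to 0.078 without any 1 of the 4 arrays).

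Of the lymphoid lists, those of B cells and of MHC class II genes gave more calls in intestine than the 11.0% of all genes, and that of T cells did not. Of 22 IgA plasma and B cell markers 9 were higher there, led by Jchain, the joining chain of polymeric IgA (10.16 and 11.43 against 6.61 and 5.47, difference -4.75, SE 0.56, adjusted p 0.0042). Of 18 MHC class II and dendritic cell genes 8 were higher in intestine, and of 31 T cell and intraepithelial lymphocyte markers 3 were, namely Cd7, Gzma and Ccl5. All 3 lists averaged higher on intestine array 2 than on array 1 (8.82 and 8.11, 9.33 and 8.63, 7.96 and 7.03). Without intestine array 1 the T cell count was 13, without intestine array 2 it was 5, and without liver array 1 or 2 it was 0. The B cell count was 5, 2 and 4 without intestine array 2, liver array 1 and liver array 2, and the class II count was 4, 0 and 2. Of 25 mast cell and granulocyte markers 1 was called, Hdc, histidine decarboxylase, higher in liver by 1.34 (adjusted p 0.0040), with 4 in liver without liver array 2 and 2 in intestine without intestine array 1.

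Zonation and sex gave further detail on the liver side. Of 20 pericentral hepatocyte genes 10 were higher in liver and of 21 periportal genes 8 (medians 2.05 and 1.28), with Cyp2c37 at 12.75 and 12.99 against 6.93 and 6.81 among the first (difference 6.01, adjusted p 0.0031) and the histidine-degrading enzyme Hal at 13.53 and 13.32 against 6.87 and 6.69 among the second (difference 6.64, adjusted p 0.0010). Without any 1 of the 4 arrays the pericentral count was 3 to 6. Of 17 genes known to be higher in female mouse liver 11 were higher in liver here, with a mean of 10.3 on both liver arrays, while 2 of 15 male-biased genes were. Cyp3a16 read 12.18 and 11.32 against 4.48 and 4.07 (difference 7.47, SE 0.32, adjusted p 0.00021) and Sult3a1 12.18 and 10.50 against 3.76 and 3.65 (difference 7.64, SE 0.62, adjusted p 0.0012). The 2 male-biased calls were Mup3 (difference 8.13) and Ugt2b1 (7.58), both among the 15 largest differences on the liver side. The male-biased list had a median difference of 2.51 and the female-biased list 3.17. Cyp4a12a, a male-biased hydroxylase below that median, read 5.73 and 5.74 in liver and 5.27 and 5.19 in intestine. It was not called (difference 0.51, adjusted p 0.190). The male-biased count rose to 12 in the fit of the 4 compared arrays, and the list averaged 11.5 on the gallbladder array with Y-linked signal and 7.84 on the other. An example is Slco1a1 (difference 5.91, SE 1.59, adjusted p 0.053 with the gallbladder arrays). The female-biased count was 7 without liver array 2.

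**Figure D4:**
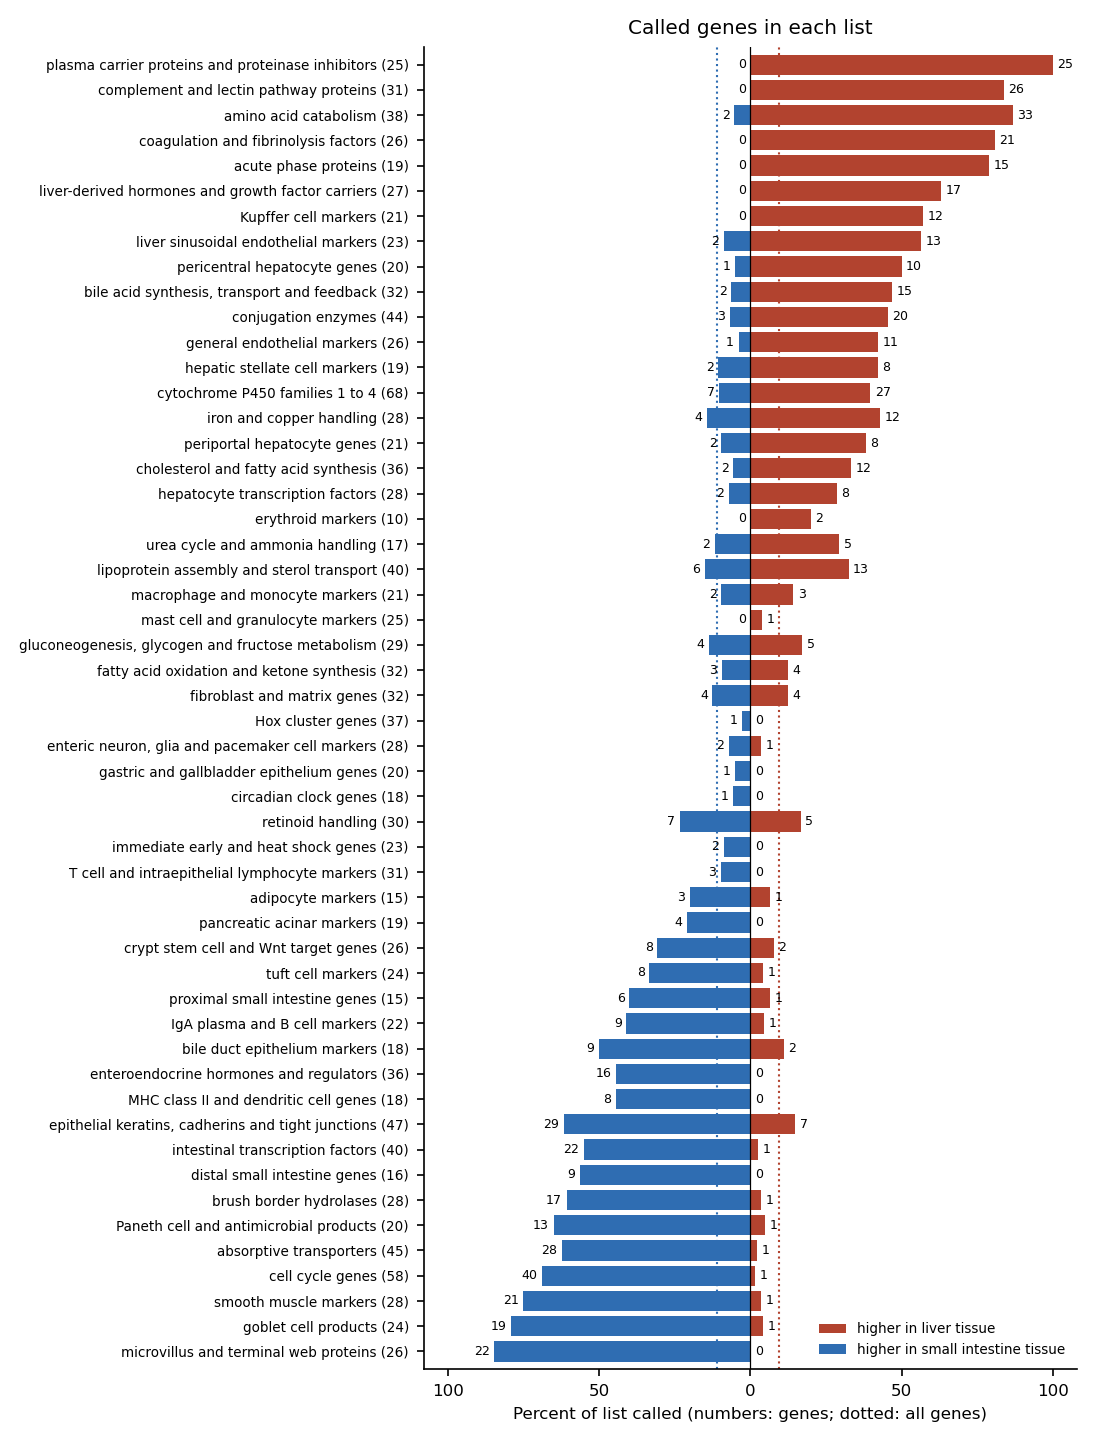
Percent of the measured genes of each list (list size in brackets) called higher in liver tissue (red, to the right) or higher in small intestine tissue (blue, to the left), with the number of genes at each bar end and dotted lines at the shares of all genes, 9.43% and 11.0%. Plasma proteins reach 25 of 25 on the right and microvillus proteins 22 of 26 on the left, while clock and Hox genes stay at 1 call each.

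MicroRNA genes were read by probe sets for their precursors, which do not measure the mature RNA. Of 300 such genes, looked at after their values were seen, 4 were higher in liver and 8 in intestine. Both counts lie below the shares of all genes (9.43% and 11.0%). The largest difference was that of Mir215, which read 9.59 and 8.51 in intestine and 4.81 and 4.85 in liver (difference -4.22, SE 0.35, adjusted p 0.0014). Mir192 read 6.71 and 7.49 against 4.82 and 5.07 (difference -2.16, adjusted p 0.0070), and Mir194-1, which lies beside Mir215 on chromosome 1, 9.44 and 8.82 against 7.77 and 8.07 (difference -1.21, adjusted p 0.031). Mir122, the main microRNA of hepatocytes, was higher in liver by 0.87 (adjusted p 0.016). The call of Mir215 was kept with any 1 of the 4 arrays left out. That of Mir192 was lost without liver array 1 (adjusted p 0.052), that of Mir194-1 without intestine array 1 or either liver array (0.086 to 0.15), and that of Mir122 without any 1 of the 4 (0.052 to 0.088). The mature 5p sequences from RefSeq on GRCm38.p6 are shown because the first 2 share a seed (bases 2 to 8, in capitals), the stretch that pairs with targets.
miR-215-5p: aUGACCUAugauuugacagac
miR-192-5p: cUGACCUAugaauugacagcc
miR-194-5p: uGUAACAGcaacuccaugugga
In GRCm38.p6 they lie at chr1:185313610-185313630, chr19:6264857-6264877 and chr1:185313325-185313346, in the order printed and all on the plus strand. The seed UGACCUA is common to miR-215-5p and miR-192-5p, and miR-194-5p has the seed GUAACAG.

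The same contrast in the organoids of both tissues was set against the tissue contrast in 1 fit of 8 arrays. The difference between liver and intestine differed between tissue and organoids in 6170 of 19938 genes (30.9%), shifting toward liver in tissue for 2888 (14.5%) and toward intestine for 3282 (16.5%). Organoid arrays spread less than tissue arrays, with a pooled SD of 0.128 and 0.136 against 0.368 and 0.289 for intestine and liver. This fit also leaves out gallbladder tissue, and the SE of Apoh was 0.21 here against 0.68 in the tissue fit. The 30.9% is therefore not comparable with the 20.5% of genes called in the tissue fit. Of 18 measured markers of hepatocytes, enterocytes, goblet and Paneth cells 14 differed in this test. Alb was 5.37 higher in liver tissue than in intestine tissue but -1.97 in organoids (difference between the differences 7.34, SE 0.75, adjusted p 0.00042). Apoh, a plasma protein, went from 7.24 in tissue to 0.04 in organoids (7.20, SE 0.21, adjusted p 2e-06). Alb and Apoh thus separated the tissues without being higher in liver organoids, while Ttr, the thyroxine carrier, was higher on the liver side in both (5.23 in tissue and 1.37 in organoids). Sis stayed at -8.83 and -8.47 (difference -0.35, SE 0.15, adjusted p 0.130), and the Paneth defensin Defa24 at -9.01 and -9.43 (0.42, SE 0.46, adjusted p 0.566). Vil1 went from -6.84 in tissue to -0.74 in organoids (-6.10, SE 0.25, adjusted p 7.2e-06), and Mmp7 from -3.12 to 2.79.

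**Figure D5:**
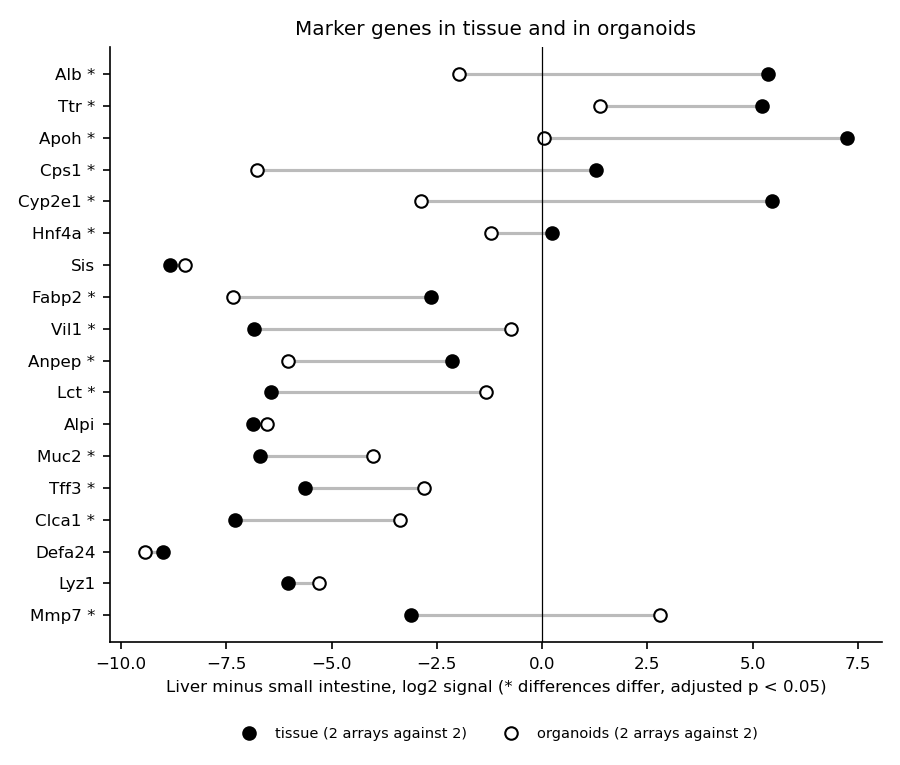
Difference between liver and small intestine in log2 signal (horizontal axis) for 18 marker genes in tissue (filled) and in organoids (open), each from 2 arrays against 2, with an asterisk where both differences differ at an adjusted p under 0.05 in limma. Sis, Alpi, Defa24 and Lyz1 have no asterisk, and Alb, Cps1, Cyp2e1, Hnf4a and Mmp7 lie on opposite sides of 0.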

How the data were processed

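RNA of 4 tissue arrays, with 2 gallbladder tissue arrays in the same fit, was read on Affymetrix arrays. The deposited log2 values were made by the authors with RMA (background correction, quantile normalization and probe summary), a name given per the submitters' processing notes, and such values compress differences near the top and bottom of the scale. Of 35556 probe sets, 21789 had 1 gene symbol in the platform annotation, 1621 had several and 12146 had none, and the highest-mean probe set of each gene left 19938 genes. Liver minus small intestine was fitted with limma 3.58.1 in R 4.3.3 on 6 arrays (3 residual degrees of freedom), with Benjamini-Hochberg adjustment over all genes and a threshold of 0.05. Organoid arrays vary less and entered only the fit of 8 arrays that compares both contrasts. With 2 arrays against 2, an exact 2-sided permutation test cannot go below 0.333. The number of arrays limits the precision. On simulated data 50 genes planted at each size over 19938 genes gave 4 calls at a difference of 1, 32 at 2 and 46 at 4. Of 88 calls 6 were false. Each gene had 1 spread for all tissues, drawn from the spread shared across genes in the tissue fit. The planted genes were a far smaller share than the 20.5% called in the data, so the recovery there may differ. Named genes were the 15 largest in each direction, up to 6 called members a list in each direction, textbook markers that were not called, and pairs. The members and lists were chosen with earlier results of these data known.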

Additional observations from a re-analysis of the deposited data

Results flagged for a closer look

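The difference between liver and small intestine differed between tissue and organoids, by a test of the difference itself in limma, in 6170 genes and in 14 of the 18 markers looked at. As tissue difference minus organoid difference in log2 signal, the hepatocyte markers gave 8.32 for Cyp2e1, 8.07 for Cps1, 7.34 for Alb, 7.20 for Apoh, 3.87 for Ttr and 1.43 for Hnf4a. For Cps1 the tissue difference was 1.28 and the organoid difference -6.78. The enterocyte markers gave -6.10 for Vil1, -5.09 for Lct, 4.70 for Fabp2 and 3.90 for Anpep, so these 4 genes did not move one way. The goblet cell markers gave -3.92 for Clca1, -2.84 for Tff3 and -2.69 for Muc2, and the Paneth cell protease Mmp7 gave -5.91. Both contrasts come from 2 arrays against 2.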

How the results depend on the processing

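With all 14 arrays in the fit 3734 genes were higher in liver and 3751 in small intestine, and the less variable organoid arrays then share in the estimate of spread. Leaving out 1 array gave 761 to 1911 genes higher in liver and 1104 to 2051 higher in intestine. The other alternatives (4 arrays only, quantile normalization, centred arrays, no dim genes, mean of probe sets, intensity trend with robust fitting, a difference of at least 1, a replicate block) stayed within 1.5 times for both counts. Genes that changed sign were not called with all arrays. Pklr was 0.023 with centred arrays and Apob -0.0044 with quantile normalization. Without 1 array the ranges were -0.69 to 0.64 for Pklr, -0.22 to 0.53 for Dgat2, -4.82 to 0.039 for Fgf15, -0.47 to 0.016 for Mogat1, -1.17 to 4.60 for Slc10a2 -0.91 to 0.037 for Slc2a2, -7.57 to 0.17 for Fabp6, -2.83 to 0.24 for Pdx1, -1.31 to 0.80 for Arntl, -2.28 to 0.64 for Dbp, -2.19 to 2.62 for Ddit4, -1.61 to 3.33 for Gadd45g, -1.55 to 0.93 for Adipoq, -0.14 to 0.0058 for Apoa1, -0.22 to 0.39 for Apob, -0.34 to 0.65 for Lgr5 and -0.096 to 1.86 for Pck1, and the cause was not tested beyond the array left out. Of 331 named calls 201 were kept with any 1 array left out. Deviations of same-numbered arrays correlated at 0.109 between liver and small intestine, -0.010 between liver and gallbladder and 0.053 between small intestine and gallbladder. Such a correlation over all genes cannot show whether same-numbered arrays share an animal. A fit with the replicate number as a block called 1807 and 2081 genes. The count for tissue against organoids ran from 4288 to 7091 without 1 array.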

Other observations

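Some lists concern cells that either sample could hold beside its own. Set against 9.43% of all genes called higher in liver and 11.0% in intestine, of 15 adipocyte markers 1 was higher in liver, Car3 (3.59, adjusted p 0.010 in limma, and 0.060 without liver array 1 or 2), and 3 in intestine, Cidec, Lipe and Acvr1c. The adipocyte list averaged 7.83 and 8.85 on liver arrays 1 and 2. Higher in intestine were 1 adipocyte marker in the fit of the 4 compared arrays, 1 without intestine array 2 and none without liver array 1. Of 10 erythroid markers 2 were higher in liver, the haem synthesis enzyme Alas2 (2.80, adjusted p 0.029) and Tspan33 (1.57, adjusted p 0.045), and none without any 1 of the 4 arrays. Of 20 gastric and gallbladder epithelium genes 1 was higher in intestine, Cym (-2.65, adjusted p 0.022), with 3 without intestine array 1 and none without either liver array.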
